A study of Mus musculus with 12 samples.

Results

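The Genotype x Treatment interaction was measured for each gene in whole somatosensory cortex of neonatal mice, as the ethanol effect in p53 KO mice minus the ethanol effect in WT mice. All 12 libraries of the series entered, 3 in each of 4 groups, and the estimated counts were summed per gene symbol. The mice were male, on a C57BL/6 background and at postnatal day 7. WT saline mice carried both Trp53 alleles and received saline, and WT ethanol mice received ethanol at 2.5 g/kg by intraperitoneal injection, repeated after 2 h. The p53 KO saline and p53 KO ethanol mice were homozygous for the Trp53tm1Tyj deletion and were treated in the same ways. WT and KO mice came from matings of heterozygous parents, and the deletion is constitutive, so it was present in every cell type and throughout development. Cortex was collected 8 h after the last injection. It was taken by laser microdissection from some brains and by hole punch from others, and the labels do not say which library had which. Since each library holds a mixture of cells, fewer cells of a type and less RNA per cell cannot be told apart. The labels do not tie each library to 1 animal, so the p-values measure only the spread between these libraries, which may be technical in part.

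p53 is a transcription factor that is stabilized by cellular stress and activates genes for cell cycle arrest, DNA repair and apoptosis. In the first postnatal weeks the rodent brain passes through synapse formation and naturally occurring cell death, and ethanol given at this age raises the number of dying neurons. A positive interaction means that ethanol minus saline was larger in KO than in WT mice, and a negative one that it was smaller. It says nothing by itself about which of the 4 groups differs, so the level in each library is given beside it.

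The targeted gene was examined first. Trp53 was counted in all 12 libraries, at 3.67 to 28.7 CPM (counts scaled to a common library size), and its interaction was 0.73 ± 0.85 (log2, SE; adjusted p = 0.711 by edgeR). The ranges of the genotypes overlapped. The deposited counts divide Trp53 between 2 RefSeq transcripts, and the share of NM_001127233 was 7.01 to 23.1% in the 6 WT libraries and 65.7 to 70.6% in 4 of the 6 KO libraries. It was 48.3% in KO ethanol replicate 18 (exact 95% interval 43.7 to 53.1%, counting error only). In the library labelled KO ethanol replicate 12 it was 7.01%, from 14 Trp53 counts, the value also seen in 3 WT libraries. The counts are estimates divided between the transcripts, so no interval is given for that library. The split between transcripts does not measure the deleted exons directly. The libraries at 7.01% were those with the fewest Trp53 counts (14, 20, 51 and 78), so this share cannot show the genotype. The Trp53 level of the library labelled KO ethanol replicate 12, 23.4 CPM, lay within the ranges of the WT and the other KO libraries. Since its share cannot show the genotype and its total count was the lowest, the calls of each gene list are also given without it.

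The total count per library ranged from 719735 in the library labelled KO ethanol replicate 12 to 17066392 in KO saline replicate 8. The composition of the libraries differed within groups. The 79 cytosolic ribosomal protein genes held 19.8, 6.67 and 8.72% of the counts in WT saline replicates 1, 3 and 13, and 12.6% in the library labelled KO ethanol replicate 12, against 2.84 to 5.76% in the other 8 libraries. The noncoding RNA Meg3 was at 17.2 and 58.8 CPM in WT saline replicates 13 and 1 and at 5689 to 7019 CPM in KO saline replicate 7 and KO ethanol replicates 10 and 18, and those 3 libraries correlated with each other at 0.986 to 0.990 (Pearson's r of log2(CPM + 1) across 14739 genes, which are not independent replicates). KO saline replicate 7 and KO ethanol replicate 10 were the most alike of all pairs. The median r was 0.927 for pairs within a group and 0.911 for pairs from different groups, and WT saline pairs were at 0.817 to 0.931. For choroid plexus, Ttr reached 4919 CPM in WT ethanol replicate 4, 2213 in KO saline replicate 9 and 2193 in KO ethanol replicate 18, and was at 0 to 404 CPM in the other 9. The thalamic gene Tcf7l2 was at 471 CPM in WT ethanol replicate 4 and at 1.03 to 29.2 CPM elsewhere. Markers of striatum were summed to 1248 CPM in WT ethanol replicate 14, 595 in WT ethanol replicate 5 and 530 in KO ethanol replicate 18. Elsewhere their sum was 125 to 286 CPM. Markers of cortical projection neurons were summed to 1405 to 2142 CPM in every library, as the labelled tissue has them.

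The interaction was called for 1632 of 14739 genes tested (11.1%), at the adjusted p under 0.30 that the study used. It was positive for 831 genes (5.64%) and negative for 801 (5.43%). At an unadjusted p under 0.05 there were 2237 genes (15.2%), and no gene was called at an adjusted p under 0.05 by edgeR, where the lowest value was 0.140. DESeq2 called 255 genes at that stricter level, all 255 of them among the 1632. Without the library labelled KO ethanol replicate 12 the calls fell to 35, of which 4 were positive, and 1236 of the 1632 had an unadjusted p under 0.05. Without both libraries whose names open with L (WT saline replicate 3 and the library labelled KO ethanol replicate 12) 4322 genes were called, and 1575 of the 1632 were among them. With the first letter of the library name as a covariate no gene was called by edgeR, and 1519 had an unadjusted p under 0.05. Scaling by total counts without TMM factors moved the median interaction of all genes from -0.11 to -0.52, and the calls were then 372 positive and 1634 negative.

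The ethanol effects behind these calls had opposite signs. In WT mice the ethanol effect had an unadjusted p under 0.05 in 2704 genes (18.3%) and an adjusted p under 0.30 in 3310 (22.5%). The latter count was 71 without WT ethanol replicate 4, 195 without WT saline replicate 1, 833 without WT ethanol replicate 14, 1895 without KO saline replicate 9, 2134 without WT saline replicate 13 and 7304 without WT saline replicate 3. In KO mice the unadjusted level was reached by 465 genes (3.15%) and the adjusted level by none in edgeR and by 3 in DESeq2. Among the 831 genes with a positive interaction the median ethanol effect was -1.35 in WT and 0.80 in KO mice (log2), and the effects had opposite signs in 825. Among the 801 genes with a negative interaction the medians were 1.47 and -0.60, with opposite signs in 737. Over all genes tested the signs were opposite in 56.7%. The WT effect had an unadjusted p under 0.05 in 628 of the positive and 627 of the negative calls, and the KO effect in 107 and 126. In absolute size the WT effect was the larger in 702 and 670 of them, and in 66.2% of all genes.

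**Figure D1:**
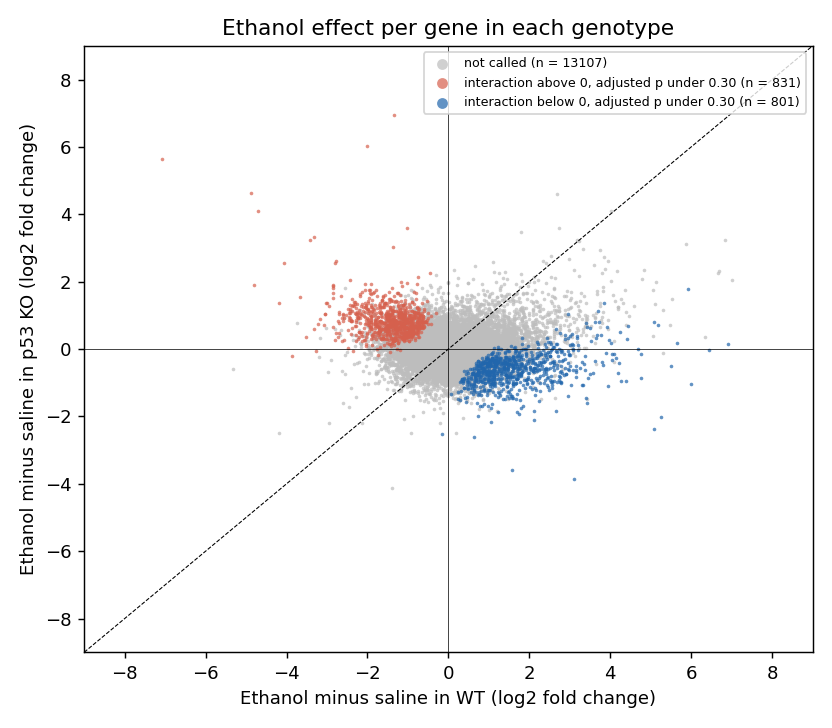
Ethanol minus saline in WT mice (x axis) against the same in p53 KO mice (y axis), both as log2 fold changes, 1 point per gene. Called genes lie off the dashed line of equal effects, with 831 positive interactions toward the upper left and 801 negative ones toward the lower right, and most of them lie farther from 0 along the WT axis than along the KO axis.

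WT saline was the group that stood farthest from the other 3 by mean log2(CPM + 1) in 672 of the 831 positive and 531 of the 801 negative calls, and in 7238 of all 14739 genes. Ethanol and saline libraries did not overlap in WT mice in 522 of the positive and 624 of the negative calls (19.6% of all genes), and in KO mice in 153 and 197 (10.8% of all genes). All 3 WT saline libraries lay below the other 9 in 167 of the negative calls (2.33% of all genes), and above the other 9 in 39 of the positive calls (1.4% of all genes). A full crossing, in which neither genotype's groups overlapped and the directions were opposite, was seen in 131 negative calls (1.15% of all genes) and in 74 positive calls (0.59% of all genes). These counts describe the called genes and are not a separate test, since the interaction was computed from the same values.

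The 10 genes with a negative interaction and the smallest p, at a mean of 4 CPM or more, were Hivep3, Cit, Rims1, Plcb4, Fam13b, Peg3, Gabbr2, Pcdh17, Nav3 and Htr2c. Their transcripts had 3344 to 11838 bases, against a median of 2957 over all genes tested. In all 10 the WT groups did not overlap and in 8 all WT saline libraries lay below the other 9. All 10 were also called without the library labelled KO ethanol replicate 12, which was the lowest of the 9 libraries outside WT saline in 8 of them.

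Hivep3 (chromosome 4, 119814678 to 120135411, mm10), a large zinc finger transcription factor, had the smallest p. It was at 1.65, 2.06 and 1.63 CPM in WT saline, 17.1, 19.7 and 14.8 in WT ethanol, 22.6, 32.4 and 44.8 in KO saline, and 21.6, 3.34 and 18.6 in KO ethanol replicates 10, 12 and 18. WT saline was lowest, and the KO groups did not overlap. Its interaction was -4.37 ± 0.72 (log2, SE; adjusted p = 0.140), from 3.31 ± 0.54 in WT and -1.06 ± 0.47 in KO mice. Cit (chromosome 5, 115845656 to 116006341) encodes citron kinase, which acts in cytokinesis. It was at 1.84, 0.514 and 0.817 CPM in WT saline and at 10.0 to 31.6 CPM in the other 9 libraries. The KO groups overlapped, and the interaction of -4.42 ± 0.74 (adjusted p = 0.140) came from 4.15 ± 0.58 in WT and -0.27 ± 0.48 in KO mice.

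Rims1, Shank2 and Gabbr2 act at synapses. Rims1 (chromosome 1, 22288422 to 22432843), a scaffold of the presynaptic active zone, was at 4.04, 7.20 and 8.02 CPM in WT saline, 50.8, 37.0 and 29.5 in WT ethanol, 36.2, 35.3 and 42.2 in KO saline and 30.4, 18.4 and 30.8 in KO ethanol. WT saline was again below all other libraries, and the interaction was -3.08 ± 0.54 (adjusted p = 0.140). Shank2, a postsynaptic scaffold of glutamatergic synapses, was at 3.86, 14.9 and 7.65 CPM in WT saline and 16.7 to 84.9 CPM elsewhere, with an interaction of -3.53 ± 0.69 (adjusted p = 0.162). Gabbr2, a subunit of the metabotropic GABA-B receptor, was at 5.33, 19 and 14.7 CPM in WT saline and 68.5 to 203 CPM elsewhere, with an interaction of -3.67 ± 0.68 (adjusted p = 0.162). In these 3 genes WT saline lay below the other 9 libraries.

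Nav3 and Htr2c were the 2 of the 10 in which WT saline did not lie below all other libraries. Nav3, which acts on microtubules in neurons, was at 11, 8.23 and 27.4 CPM in WT saline, and the last of these was above the 23.4 CPM of the library labelled KO ethanol replicate 12. Its interaction was -3.27 ± 0.63 (adjusted p = 0.162). Htr2c, the serotonin 2C receptor, was at 2.94, 0 and 2.90 CPM in WT saline, 141, 86.1 and 32.7 in WT ethanol, 4.35, 38.2 and 69.3 in KO saline, and 6.95, 0 and 16.2 in KO ethanol. KO saline spread from near WT saline to near WT ethanol, and KO ethanol overlapped WT saline. The interaction was -7.25 ± 1.41 (adjusted p = 0.162). The 2 libraries at 0 had the lowest total counts, 1953154 and 719735. Htr2c is also abundant in choroid plexus, and Ttr was highest in WT ethanol replicate 4, the library with the highest Htr2c. WT ethanol replicate 5 had Ttr at 19.9 CPM with Htr2c at 86.1, and KO ethanol replicate 18 had Ttr at 2193 CPM with Htr2c at 16.2. All 8 choroid plexus markers had a negative interaction, with a median of -2.77. The part of that tissue in the result was not tested.

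The first 10 genes with a positive interaction, by the same rule, were Rpph1, Rmrp, Ppp1r14b, Rn45s, Mvb12a, Abhd14a, Sypl2, Psmg4, Timm13 and Prss36. Rpph1, Rmrp and Rn45s are noncoding RNAs. Of the 9 with a known length, Sypl2 (4090 bases) and Prss36 (3028 bases) were above the median of 2957 and the others had 271 to 1225 bases. The WT groups were apart in all 10 and the KO groups in 8. The library labelled KO ethanol replicate 12 was the highest of all 12 in 5. Rpph1, Rmrp, Ppp1r14b and Rn45s were also called without it, and the other 6 were not.

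Ppp1r14b (chromosome 19, 6975048 to 6977324), an inhibitory subunit of protein phosphatase 1, had the narrowest groups of these. It was at 174, 189.7 and 181 CPM in WT saline, 53.2, 58.7 and 59.9 in WT ethanol, 71.0, 63.1 and 80.5 in KO saline and 81.9, 91.9 and 93.1 in KO ethanol. All 3 WT saline libraries lay above the other 9, and the interaction was 1.98 ± 0.39 (adjusted p = 0.172), from -1.66 ± 0.28 in WT and 0.31 ± 0.28 in KO mice. Without the library labelled KO ethanol replicate 12 it was 1.95. Mvb12a, a subunit of the ESCRT-I complex of endosomal sorting, was at 36.7, 41.1 and 36.2 CPM in WT saline, 14.8, 16.4 and 15.5 in WT ethanol, 20.4, 14.0 and 13.2 in KO saline and 20.8, 31.8 and 22.1 in KO ethanol. Its interaction was 1.89 ± 0.47 (adjusted p = 0.250), and without the library labelled KO ethanol replicate 12 it was 1.72 and no longer called (adjusted p = 0.398).

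Rpph1 and Rmrp are the RNA components of RNase P and RNase MRP. Rpph1 (chromosome 14, 50807447 to 50807771) was at 101, 6.17 and 24.9 CPM in WT saline, 1.02, 1.2 and 2.46 in WT ethanol, 2.73, 0.410 and 1.40 in KO saline, and 9.55, 110.3 and 5.65 in KO ethanol. WT saline replicate 1 and the library labelled KO ethanol replicate 12 held levels far above all others, yet the groups of both genotypes were apart also without them. The interaction was 9.51 ± 1.72 (adjusted p = 0.143) with all libraries and 7.22 without the library labelled KO ethanol replicate 12. Rmrp followed with 8.81 ± 1.70 (adjusted p = 0.162). Rn45s, the ribosomal RNA precursor, was at 447 to 4065 CPM in WT saline, 159 to 349 in WT ethanol, 92.9 to 336 in KO saline and 417 to 4649 in KO ethanol, with an interaction of 6.66 ± 1.38 (adjusted p = 0.185). Its genes are repeated in the genome, so its counts are uncertain.

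**Figure D2:**
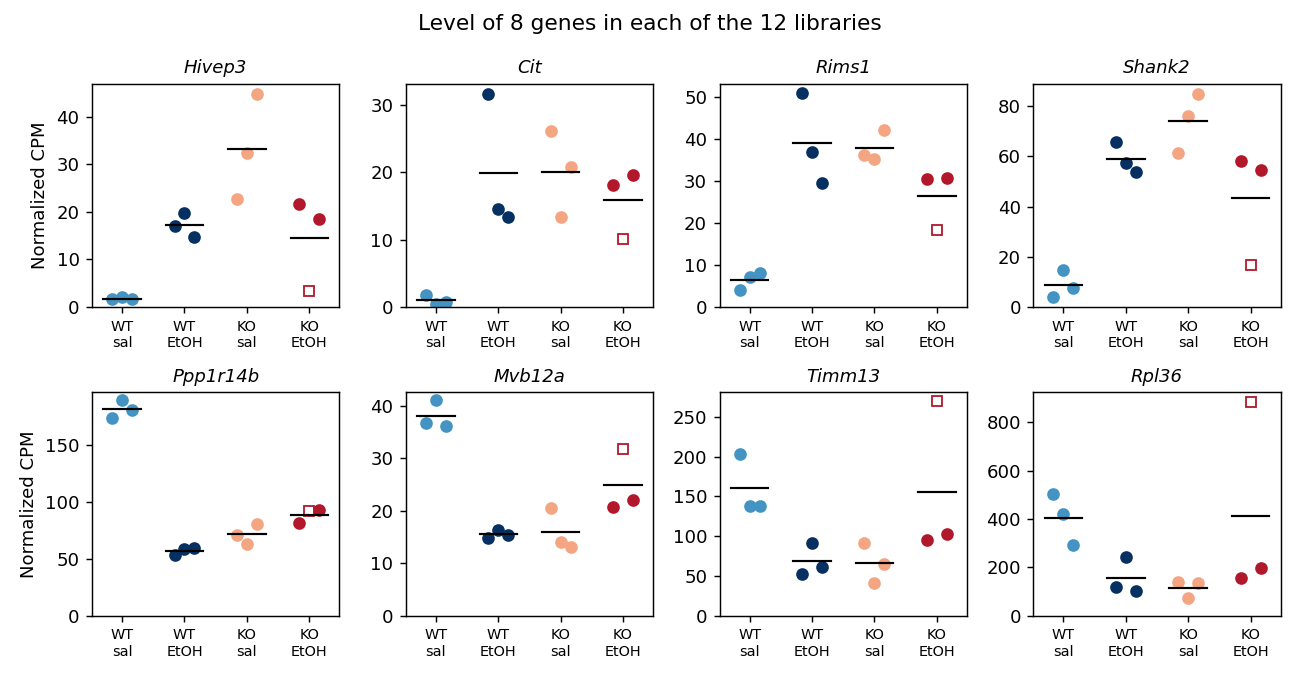
Normalized CPM (y axis, from 0) of 8 genes in each library by group, with the group mean as a line and the library labelled KO ethanol replicate 12 as an open square. In Hivep3, Cit, Rims1 and Shank2 the 3 WT saline libraries are lowest, and in Ppp1r14b and Mvb12a they are highest, while in Timm13 and Rpl36 the open square is the highest of all 12.

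Cytosolic ribosomal proteins, the protein subunits of the translating ribosome, were the list with the largest share of calls. Of 79 members tested 68 were called positive and none negative, against 11.1% of all genes called in either direction. The members' median interaction was 3.22 (log2), against -0.11 over all genes tested, with a median ethanol effect of -2.14 in WT and 1.04 in KO mice. Rpl36 was at 502, 419 and 292 CPM in WT saline, 119, 244 and 102 in WT ethanol, 141, 74.3 and 135 in KO saline and 158, 883 and 197 in KO ethanol, with an interaction of 3.19 ± 0.86 (adjusted p = 0.250). Its highest value was that of the library labelled KO ethanol replicate 12. Rpsa, the member with the highest level, was at 12056, 2876 and 5473 CPM in WT saline, 978, 2288 and 991 in WT ethanol, 577, 1847 and 1233 in KO saline and 555 and 574 in KO ethanol replicates 10 and 18, against 6730.1 in replicate 12. Without that library the list's median interaction was 1.78 and no member was called, against 35 of all 15007 genes tested in that fit. Many ribosomal protein genes have processed pseudogenes that can share reads, so single members are uncertain.

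The start sites of 3 ribosomal protein genes are shown because these genes moved together and many such mRNAs begin with a run of pyrimidines, the 5′ terminal tract through which mTOR controls their translation. They are the members with the smallest p that have a RefSeq window (GRCm38.p6, 100 bases before to 20 after the start), and Hivep3 and Cit follow for contrast. Capitals mark the unbroken run of C or T that covers the first transcribed base.
Rpl28, chr7:4792865-4792984, plus strand: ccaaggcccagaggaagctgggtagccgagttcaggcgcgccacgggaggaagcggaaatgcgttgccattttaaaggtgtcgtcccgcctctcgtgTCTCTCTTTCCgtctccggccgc
Rps13, chr7:116334171-116334290, minus strand: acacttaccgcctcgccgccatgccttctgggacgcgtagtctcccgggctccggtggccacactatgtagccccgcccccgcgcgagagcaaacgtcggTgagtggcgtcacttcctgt
Rps27, chr3:90213629-90213748, minus strand: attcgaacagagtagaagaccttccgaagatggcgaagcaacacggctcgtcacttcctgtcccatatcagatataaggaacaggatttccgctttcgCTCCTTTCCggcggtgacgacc
Hivep3, chr4:119814578-119814697, plus strand: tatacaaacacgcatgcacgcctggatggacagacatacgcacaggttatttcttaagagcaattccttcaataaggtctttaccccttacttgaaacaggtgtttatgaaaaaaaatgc
Cit, chr5:115845556-115845675, plus strand: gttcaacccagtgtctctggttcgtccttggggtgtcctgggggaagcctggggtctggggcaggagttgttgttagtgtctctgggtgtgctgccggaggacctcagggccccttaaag
The run had 11 bases in Rpl28, 1 in Rps13 and 9 in Rps27, and Hivep3 and Cit had none. A run may open before the start site, as in Rpl28 and Rps27, so its length is not that of the 5′ terminal tract. A run of 8 bases or more was present in 3.81% of all 27025 windows, in 16 of the 58 matched ribosomal protein windows (27.6%) and in 4 of the 61 matched windows of oxidative phosphorylation genes (6.56%). Windows were matched for 73.4% of the ribosomal protein genes and 76.2% of the genes tested. The rest had no window, so these shares are description only. No comparison of the ribosomal protein share, or of called with other genes, was tested.

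Nuclear-encoded subunits of oxidative phosphorylation, the respiratory complexes and ATP synthase of mitochondria, had 57 of 74 members called positive and none negative. Of all genes 5.64% were called positive. Their median interaction was 2.55, from -1.57 in WT and 0.94 in KO mice. Ndufb7, a subunit of complex I, was at 324, 179 and 182 CPM in WT saline, 68.2, 96.7 and 71.0 in WT ethanol, 68.1, 53.1 and 60.6 in KO saline, and 66.9, 344 and 69.6 in KO ethanol. The WT groups did not overlap, and in KO ethanol 1 library of 3 was high. Its interaction was 2.91 ± 0.77 (adjusted p = 0.250) with all libraries and 1.71 without the library labelled KO ethanol replicate 12 (adjusted p = 0.441). The list's median was then 1.61 and no member was called, against 35 of all 15007 genes tested in that fit. Atp5a1 and Atp5b, the catalytic core of ATP synthase and the most abundant members, were not called with all libraries either, at 1.13 ± 0.70 and 1.51 ± 0.82 (adjusted p = 0.456 and 0.401). The hemoglobin genes moved with these lists, with 6 of 7 blood markers tested called positive (5.64% of all genes) and a median interaction of 4.53. Without the library labelled KO ethanol replicate 12 the median was 1.26 and none was called. Their summed level was 458 to 2772 CPM in WT saline, 102 to 298 in WT ethanol, 64.8 to 181 in KO saline and 60.7 to 1331 in KO ethanol, and the part of blood in the result was not tested. Hemoglobin genes are near-identical copies whose counts may be split.

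The lists for synapses are given beside the 5.43% of all genes called negative and the 5.64% called positive. Of 23 genes of the GABAergic synapse 7 were negative and 1 positive (34.8% called, against 11.1% of all genes), with a median interaction of -0.74. Gad1 and Gad2, which synthesize GABA, had interactions of -1.15 ± 0.44 and -1.57 ± 0.56 (adjusted p = 0.267 and 0.258). Gad2 was at 24.3, 60.2 and 21.2 CPM in WT saline, 104, 115 and 104 in WT ethanol, 51.8, 58.2 and 68.0 in KO saline and 50.6, 53.5 and 81.6 in KO ethanol, so here WT ethanol was the group that stood above the other 9 libraries. The receptor subunits Gabra2 and Gabrg3 had interactions of -3.04 and -2.93, the chloride importer Slc12a2 of -1.55 and Abat, which degrades GABA, of -1.23. The positive call was Gabarap, at 2.39 ± 0.89 (adjusted p = 0.265), a short transcript of 1351 bases whose product acts in receptor trafficking and autophagy. Among interneuron markers the same Gad1 and Gad2 were the 2 called of 14 (14.3%, near the 11.1% of all genes). The marker list's summed level was 541 to 822 CPM in WT saline and 962 to 1572 in WT ethanol. It was 692 to 763 in KO saline and 770 to 1192 in KO ethanol. The part of interneuron number, or of striatal tissue, in these calls was not tested.

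Of 29 glutamate receptors and scaffolds 6 were negative and none positive (20.7% called), with a median of -0.78. They were the NMDA receptor subunit Grin3a (-2.37), the AMPA receptor subunit Gria2 (-1.95), the kainate receptor subunit Grik2 (-1.91), the metabotropic receptor Grm5 (-1.72) and the scaffolds Shank1 (-2.73) and Shank2. Gria2, which sets the calcium permeability of AMPA receptors, was at 280.2, 219 and 133 CPM in WT saline, 411, 646 and 741 in WT ethanol, 555, 812 and 524 in KO saline and 553, 194 and 637 in KO ethanol. The low value of the last group was again replicate 12. Of 25 genes of synaptic vesicle release 3 were negative, among them Rims1 and Napb (-2.04), and none positive (12.0%, near the 11.1% of all genes), while the abundant vesicle genes Syt1 and Syp had interactions of -0.14 ± 0.56 and 0.44 ± 0.60. Of 28 axon guidance genes 6 were negative, among them the receptors Nrp2 (-3.71) and Robo1 (-1.54) and the ligand Ntn1 (-2.64), and none positive (21.4% called). Without the library labelled KO ethanol replicate 12 the calls that remained in these 4 lists were Gabbr2, Shank2 and Rims1.

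Of 28 genes of S phase and mitosis 6 were negative and none positive (21.4% called, against 11.1% of all genes). They were Mki67 (-2.52), Top2a (-2.22), Cenpe (-2.81), Cenpf (-2.39), Kif11 (-1.92) and Cit, which act in mitosis and chromosome segregation. The list's median was 0.05, with 15 members above 0 and 13 below, so the list did not move as a whole. Cenpe, a kinetochore motor, was at 3.12, 2.06 and 0.743 CPM in WT saline, 7.36, 5.74 and 7.73 in WT ethanol, 5.09, 14.5 and 9.04 in KO saline and 4.66, 5.01 and 5.33 in KO ethanol. Its WT groups did not overlap and its KO groups did. Of these 6 only Cit was called without the library labelled KO ethanol replicate 12.

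Of 27 p53-activated target genes 3 were positive and 1 negative, which is 14.8%, near the 11.1% of all genes. The list's median interaction was -0.28, against -0.11 over all genes, with 10 members above 0 and 17 below. Rprm, an inducer of G2 arrest, was at 169, 227 and 176 CPM in WT saline, 37.8, 97.9 and 93.8 in WT ethanol, 148, 93.3 and 102 in KO saline and 130.3, 155 and 142 in KO ethanol, with an interaction of 1.63 ± 0.54 (adjusted p = 0.250). Bax (1.35), a pore-forming promoter of apoptosis, and Sco2 (2.29), a copper chaperone of cytochrome oxidase, were the other positive calls, and the stress-induced Sesn2 was negative (-2.75). None of the 4 was called without the library labelled KO ethanol replicate 12. Plk2, the member with the highest level, had an interaction of 0.11 ± 0.68. Of 27 genes of the apoptosis machinery only Hrk, a BH3-only activator of neuronal apoptosis, was called (3.70%), at -2.14 ± 0.79 (adjusted p = 0.266), and without the library labelled KO ethanol replicate 12 it was not.

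Cholesterol synthesis had 4 positive calls of 22 (18.2%, against 11.1% of all genes), Fdps, Tm7sf2, Nsdhl and Ebp. Microtubule and motor proteins had 2 positive and 3 negative of 25 (20%), and chromatin remodelers and histone methyltransferases 1 and 2 of 32 (9.38%). Ketone body and butanoate metabolism had 3 negative of 20 (15.0%), Abat, Gad1 and Gad2, which are also in the GABA list. The median interaction of the ketone body and butanoate list was 0.32, with 12 members above 0 and 8 below. The shares of these last 2 lists lay near that of all genes. No member was called among 17 immediate early genes, 19 stress and glucocorticoid responsive genes and 11 genes of alcohol and acetate metabolism by edgeR. Of these, 1, 2 and 0 had an unadjusted p under 0.05 by edgeR. DESeq2 called 1, 4 and 1 of them, against 2678 of all 14739 genes. Of the noncoding and nonpolyadenylated RNAs, Rpph1, Rmrp, Rn45s and the histone mRNA Hist1h2bc were the 4 called of 13 (30.8%), all positive. No marker of microglia, meninges, choroid plexus, striatum or hippocampus was called by edgeR. DESeq2 called 2, 0, 3, 1 and 1 of them, again against 2678 of all 14739 genes. The median interactions of these marker lists were 1.00, 1.65, -2.77, -0.81 and -0.67, against -0.11 over all genes. The sign was positive in 10 of 14 microglial and 7 of 7 meningeal markers. It was negative in 8 of 8 choroid plexus, 8 of 8 striatal and 4 of 6 hippocampal markers. Of all 14739 genes tested 6755 had a positive sign and 7984 a negative one. The part of tissue content in the interaction was not tested. Of the others tested, 1 of 14 projection neuron, 1 of 12 astrocyte, 1 of 13 oligodendrocyte, 2 of 13 vascular and 1 of 6 thalamic markers were called. These are 7.14, 8.33, 7.69, 15.4 and 16.7%, against 11.1% of all genes. The thalamic markers had a median of -1.37, with all 6 negative. Without the library labelled KO ethanol replicate 12 the calls left among these lists were Rpph1, Rmrp and Rn45s.

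The study chose 23 genes for the interaction on these same libraries, so their counts are not independent evidence. It ranked them by ANOVA on RPKM, whereas the calls here are per gene symbol by edgeR. Here 5 were positive, 9 negative and 9 not called (60.9% called, against 11.1% of all genes). Rnf6, a ubiquitin ligase, was at 9.19, 13.9 and 7.28 CPM in WT saline and 23.7 to 30.9 in the other 9 libraries, with an interaction of -1.56 ± 0.48 (adjusted p = 0.250). Nudt8, a nudix hydrolase, was at 14.1, 12.3 and 14.0 CPM in WT saline, 4.81, 4.45 and 7.55 in WT ethanol, 6.64, 5.33 and 5.61 in KO saline and 9.63, 8.36 and 9.07 in KO ethanol, with an interaction of 1.92 ± 0.55 (adjusted p = 0.250). Sirt3, a mitochondrial deacetylase, had an interaction of 1.42 ± 0.58 (adjusted p = 0.290). Hivep3, Cit, Fam13b and the kinase Sik2 were the 4 of the 23 still called without the library labelled KO ethanol replicate 12.

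**Figure D3:**
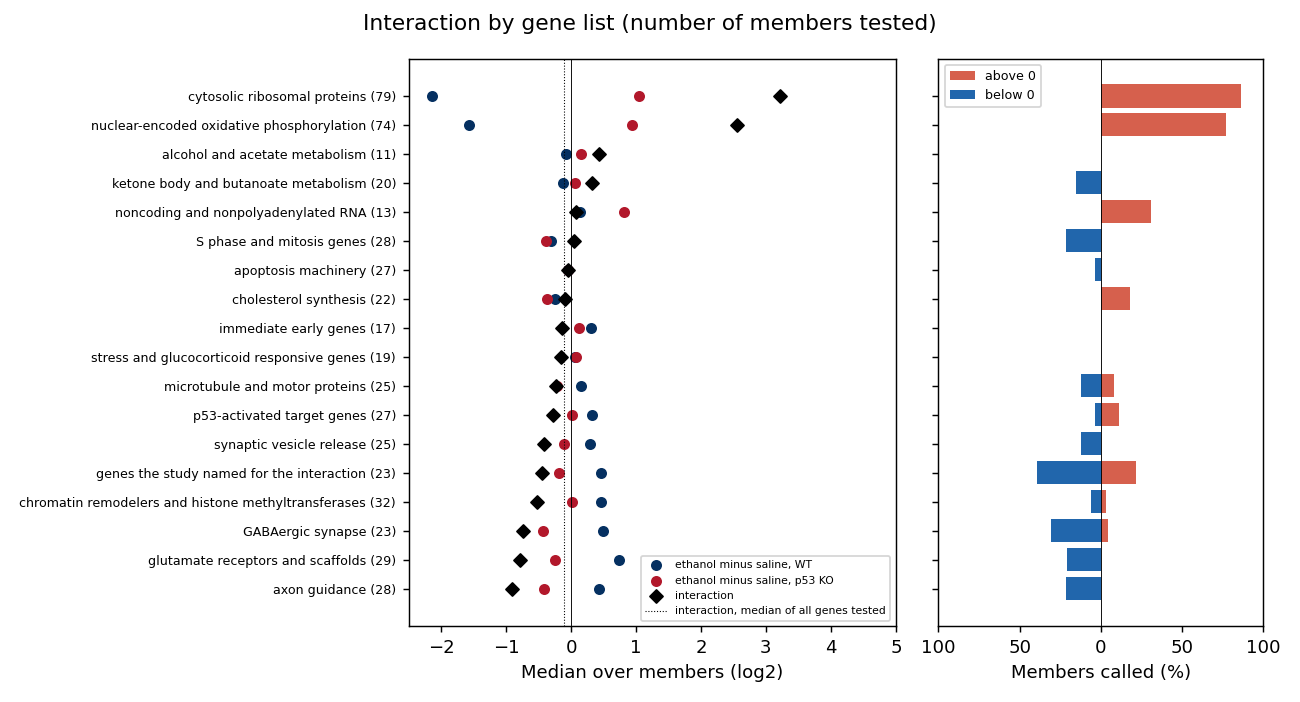
For each of the function lists, the noncoding RNAs and the genes the study named, the left panel gives the median over members of the ethanol effect in WT, the same in p53 KO, and the interaction (log2), and the right panel the percent of members called above or below 0. Ribosomal proteins and oxidative phosphorylation stand apart with medians of 3.22 and 2.55, and axon guidance is lowest.

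The called genes differed in transcript length and base composition, features that the contrast did not use. Genes with a positive interaction had a median length of 1044.5 bases and a GC content of 54.5%, those with a negative one 5227 bases and 46.1%, and all genes tested 2957 bases and 50.4%. In the shortest quintile of genes (109 to 1676 bases) 22.9% were called positive and 0.685% negative, and in the longest quintile (4863 to 123179 bases) 0.377% were positive and 15.3% negative. The median ethanol effect ran from -0.70 in the shortest to 0.55 in the longest quintile in WT mice and from 0.44 to -0.28 in KO mice. Genes under 1000 bases held 29.5, 11 and 13.3% of the counts in WT saline replicates 1, 3 and 13 and 20.1% in the library labelled KO ethanol replicate 12, against 5.85 to 10.3% in the other 8.

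When a smooth trend on length and GC was removed from each library, 30 genes were called, 3 positive and 27 negative, all 30 of them among the 1632 called without that step. Ribosomal proteins then had a median interaction of 1.36 and oxidative phosphorylation of 1.05, against 0.13 over all genes, with no member called in either list. The median of the GABAergic synapse was then -0.15, that of glutamate receptors and scaffolds -0.26, that of synaptic vesicle release 0.0091 and that of axon guidance 0.098, with 1, 1, 1 and 0 members called. S phase and mitosis genes had a median of 0.24, with 1 member called. Hivep3 (-3.43, adjusted p = 0.172), Cit (-3.21, adjusted p = 0.172), Rims1 (-2.07, adjusted p = 0.199), Shank2 (-2.81, adjusted p = 0.159), Gabbr2 (-2.87, adjusted p = 0.159) and Rpph1 (6.98, adjusted p = 0.172) were among the genes still called. Ppp1r14b was not, at 0.95 (adjusted p = 0.519). Altogether 19 genes were called both with the trend removed and, separately, without the library labelled KO ethanol replicate 12, and 17 of these were negative.

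**Figure D4:**
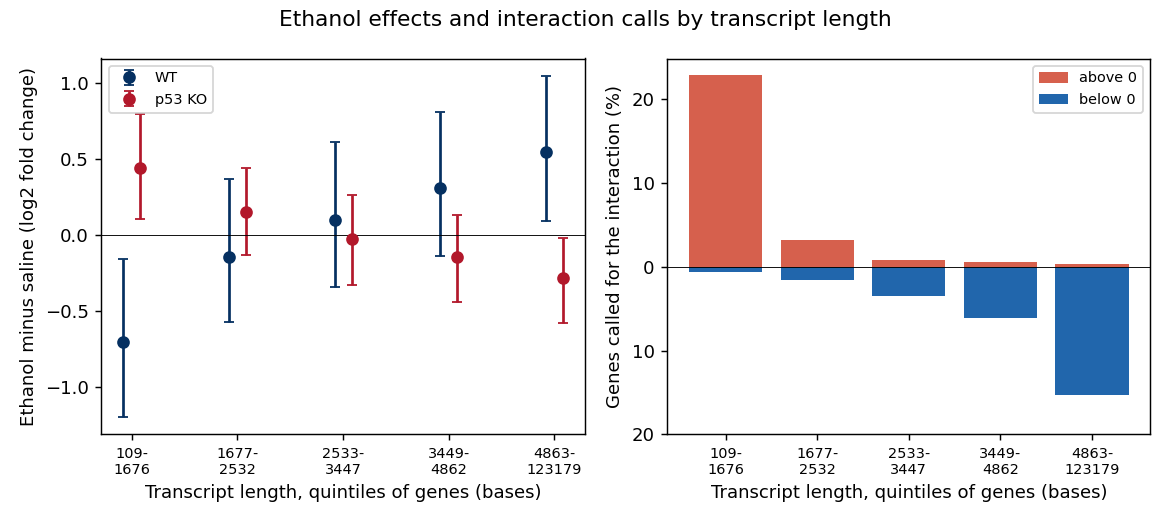
Left, the median ethanol effect (log2, bars from the lower to the upper quartile of genes) in WT and p53 KO mice by quintiles of transcript length. Right, the percent of genes in each quintile called for the interaction above or below 0, with 22.9% positive in the shortest and 15.3% negative in the longest quintile.

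The number of calls depended on which library was left out. It ranged from 0 (without WT ethanol replicate 4, KO saline replicate 8 or KO saline replicate 9) to 5064 (without WT saline replicate 3), and was 20 without WT saline replicate 1 and 112 without WT ethanol replicate 14. Of the 1632 genes, 786 (353 positive and 433 negative) had an unadjusted p under 0.05 in each of the 12 fits. No gene was called in more than 9 of the 12, and 17 genes were called in 9.

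**Figure D5:**
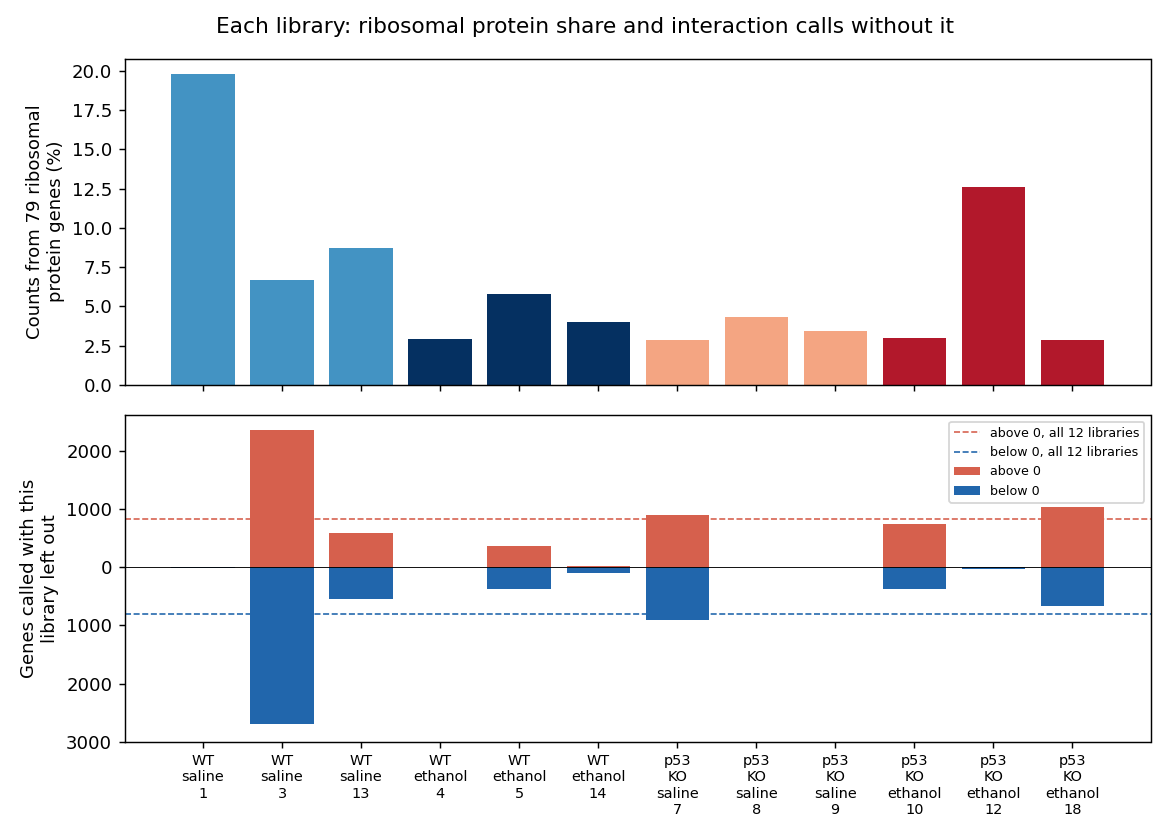
Top, percent of each library's counts from the 79 ribosomal protein genes, by group and replicate. Bottom, genes called for the interaction above or below 0 when that library was left out, with dashed lines at the 831 and 801 called with all 12, and almost no bar without WT saline replicate 1, WT ethanol replicates 4 and 14, KO saline replicates 8 and 9 or the library labelled KO ethanol replicate 12.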

How the data were processed

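Stranded total RNA libraries of whole somatosensory cortex were sequenced from 4 groups of 3 libraries. The authors removed reads with quality scores under 30, aligned the rest to mm10 with TopHat and Bowtie2, and quantified RefSeq transcripts in Partek Flow (versions not given in the sources used here). The deposited estimated counts include fractions, are not scaled, and were summed over 35840 transcripts to 24452 gene symbols (25 were altered to dates) and rounded. The RPKM values deposited by the authors were used in alternatives only.

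Genotype and treatment came from the labels, and the replicate is the library number. edgeR 4.0.16 (R 4.3.3) with its default low-count filter, TMM factors and 1 mean per group gave a two-sided quasi-likelihood test of (KO ethanol - KO saline) - (WT ethanol - WT saline), with Benjamini-Hochberg adjustment over all 14739 genes tested. A gene was called at an adjusted p under 0.30. SE was derived from the F statistic. CPM are TMM-normalized. The procedure was tested on simulated data. Total counts of 719735 to 17066392 limit the precision of low genes.

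Lengths and GC content came from GENCODE vM21 (GRCm38) and were known for 98.9% of genes. Alternatives were DESeq2 1.42.0, other scaling and filters, limma 3.58.1 on log2(RPKM + 1) and log2(RPKM + 0.1), an ANOVA on RPKM, name letter, length and GC trend, autosomes, transcripts, and each library left out. Summaries used Python 3.11.15. Named genes were the 10 with the smallest p in each direction at a mean of 4 CPM or more, from each list the 2 with the highest level and the 2 with the smallest p (level only for markers), the genes the study named, and Trp53. Other list members given with a value were chosen because they were called. The members and the 30 lists were chosen with earlier results of these data known.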

Additional observations from a re-analysis of the deposited data

Results flagged for a closer look

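The interaction, which is the test of whether the ethanol effect differs between WT and KO mice, flagged the named genes that were called with all libraries, without the library labelled KO ethanol replicate 12 and without both libraries whose names open with L. There were 16 such genes, and the values are log2 differences between the ethanol effects. The negative ones were Htr2c (-7.25), Cit (-4.42), Hivep3 (-4.37), Plcb4 (-4.36), Peg3 (-3.98), Gabbr2 (-3.67), Shank2 (-3.53), Pcdh17 (-3.52), Nav3 (-3.27), Rims1 (-3.08), Fam13b (-2.68) and Sik2 (-2.40). The positive ones were Rpph1 (9.51), Rmrp (8.81), Rn45s (6.66) and Ppp1r14b (1.98). None of the 16 was called without WT ethanol replicate 4, KO saline replicate 8 or KO saline replicate 9. Groups of 3 libraries are too small for a test of single outlying libraries.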

How the results depend on the processing

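The number of genes called for the interaction at an adjusted p under 0.30 (1632) was within 1.5 times under total-count scaling, DESeq2-type size factors in edgeR, both filters and autosomes only. It was 2678 with DESeq2, 2623 over transcripts, 4322 without both L libraries, 30 with the length and GC trend removed, 16 and 5 with limma on log2(RPKM + 1) and log2(RPKM + 0.1), 2 with ANOVA on RPKM and 0 with the name letter as covariate. It was 0 to 5064 with 1 library left out. At an adjusted p under 0.05 (0 genes) it was 255 with DESeq2, 7 with at least 1 count in any library, 1 with log2(RPKM + 0.1), 10 without both L libraries and 0 to 3 with 1 library left out. At an unadjusted p under 0.05 (2237) it was 1491 with at least 10 counts in every library, where fewer genes were tested, 1343 with the trend removed and 1473 to 3538 with 1 library left out. The WT ethanol effect (2704) gave 1524 with at least 10 counts in every library, 1720 and 1640 with the 2 RPKM pseudocounts, 1521 with ANOVA on RPKM, 5582 without both L libraries and 1417 to 4751 with 1 library left out. The KO ethanol effect (465) gave 308 with at least 10 counts in every library, 229 with the name letter, 193 with the trend removed and 48 to 1141 with 1 library left out. The interaction of Tuba1a reversed to -0.022 on both RPKM scales. For the other values named the causes were not tested. No paired analysis was possible because the groups share no replicate numbers. The lowest total count, 719735, limits what low genes can show in the library labelled KO ethanol replicate 12.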
